A study of Mus musculus with 6 samples.

Results

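Organic ion and drug transporters are the membrane proteins that carry charged metabolites, drugs and conjugates into and out of cells. They were chosen by gene symbol: the Slc22a, Slc47a, Slco and Abcc families plus Abcb1a, Abcb1b and Abcg2. Of 18193 genes represented on the arrays by a probe set with 1 symbol, 50 met this rule, and each was read from its brightest probe set.

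RNA came from distal jejunum of 6 mice, 3 controls and 3 mutant littermates, killed at 7 months of age, with 1 array per animal. All animals carry the strain label B6.129X1(FVB)-Hnf4atm1.1Gonz/J, which holds the conditional Hnf4a allele, and all received ketamine (300 mg/kg) and xylazine (40 mg/kg) before death. In the mutants Hnf4a was deleted by Cre recombinase under a 12.4-kb Villin promoter, which is active in gut epithelium, so other cells of the wall keep the gene. The sources used here do not say whether the controls carried Cre. The labels describe biopsies of total jejunum, and in such bulk RNA fewer cells of a type and less RNA per cell cannot be told apart.

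In epithelial cells these proteins form a chain, whose members differ between tissues. Uptake carriers (OCTN, OAT and OATP proteins) bring solutes into the cell along concentration or ion gradients, and ATP-driven pumps (P-glycoprotein, BCRP and the MRP proteins) and the proton-coupled MATE exporters send solutes and their conjugates out, across the apical or the basolateral membrane. Apical pumps such as MRP2 and P-glycoprotein limit the absorption of many drugs. Hnf4a encodes a nuclear receptor of liver and gut epithelium that binds direct repeats of AGGTCA-like half-sites, and nuclear receptors such as PXR (Nr1i2) and CAR (Nr1i3) are known to control several transporter genes.

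Of the 50 transporter genes, 3 fell and 1 rose in the mutants. Slc47a1, Abcc2 and Slc22a4 fell between 2.15-fold and 2.78-fold, and Abcc1 rose 1.61-fold. The other 46 did not pass the test, which was limma's moderated test with Benjamini-Hochberg adjustment over all 18193 genes at an adjusted p under 0.05. These were 4 of 50 members, where 0.528% of all genes passed. For the 3 falls the share of all genes was 0.330%, and for the 1 rise it was 0.198%. Because the members were chosen with earlier results of these data known, these shares describe the list and test nothing.

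To show the sequence next to which these changes were measured, promoters were looked up for the 4 genes that passed. Abcc2 and Slc22a4 had entries in the RefSeq promoter table (GRCm38.p6), in which 41 of the 50 members were found by symbol. The 250 bases before each annotated start are given 5′ to 3′ on the gene's strand, with capitals for matches to 3 motifs searched on both strands. These were the nuclear receptor half-site AGGTCA, the HNF4 site CAAAGTNCA and the antioxidant response element TGACNNNGC. The first lies on the plus strand at chr19:43782058-43782307, the second on the minus strand at chr11:54028105-54028354.
Abcc2: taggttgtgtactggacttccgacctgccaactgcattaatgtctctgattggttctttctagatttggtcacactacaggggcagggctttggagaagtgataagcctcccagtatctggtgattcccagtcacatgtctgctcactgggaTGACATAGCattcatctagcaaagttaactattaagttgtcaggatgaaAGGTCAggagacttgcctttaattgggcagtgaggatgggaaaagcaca
Slc22a4: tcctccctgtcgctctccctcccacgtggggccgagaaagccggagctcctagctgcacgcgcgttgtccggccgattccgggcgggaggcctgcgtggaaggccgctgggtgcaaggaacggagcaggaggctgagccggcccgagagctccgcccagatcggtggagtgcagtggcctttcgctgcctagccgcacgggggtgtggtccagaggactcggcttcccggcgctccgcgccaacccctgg

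The Abcc2 window held 1 AGGTCA match, from 49 to 44 bases before the start, and 1 antioxidant response element match, TGACATAGC, from 98 to 90 bases before it. None of the 3 motifs matched in the Slc22a4 window, and the HNF4 site matched in neither. Over all 32851 promoters of the table, windows of the same length held AGGTCA in 14% of cases, the antioxidant response element in 10.2% and the HNF4 site in 1.19%. The motifs do not overlap in the Abcc2 window. A match is a string of letters and was not tested as a binding site.

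Hnf4a, the deleted gene, was lower in all mutants. On the log2 scale it read 11.82, 11.76 and 11.57 in controls 1 to 3 and 8.83, 8.83 and 9.82 in mutants 1 to 3, a difference of -2.56 ± 0.25 SE (limma adjusted p = 0.00756). Its call was lost without control 2 (adjusted p = 0.0506), without control 3 and mutant 2 together (0.205), with no moderation of the variance (0.274) and with the ileum marker mean as a covariate (0.509). The sources used here do not place its probe sets on the deleted exons, and the remaining signal therefore gives no measure of how much Hnf4a was left.

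Across arrays, rank correlations over all probe sets lay between 0.98 and 0.987, and array medians between 3.93 and 3.98. The enterocyte marker list (9 of 10 measured, among them Vil1, Lct and Fabp2) averaged 12.65 to 12.73 in controls and 12.44 to 12.56 in mutants. Its groups thus did not overlap, with 8 markers below the control mean and 1 above it, although 0 passed the test. Some arrays stood apart. Pancreatic acinar markers (6 of 8 measured) averaged 7.80 in control 3 and at most 4.06 elsewhere, and fat markers (5 of 7 measured) 8.18 in mutant 2 and at most 6.76 elsewhere. Ileum markers (5 measured) averaged 7.55 to 8.97 in controls and 9.25 to 9.89 in mutants, so their groups did not overlap, although 0 passed the test singly. Among them Fabp6, the ileal bile acid binder, read 9.15, 6.67 and 3.37 in controls and 9.57, 10.03 and 9.80 in mutants. T cell markers (8 measured) averaged 7.90, 6.43 and 7.16 in controls 1 to 3 and 7.62, 8.50 and 8.01 in mutants. Macrophage markers (7 measured) averaged 7.21 to 7.32 in controls and 7.38 to 7.65 in mutants. Enteroendocrine markers (8 measured, with Gip and Nts called lower) averaged 8.38 to 8.51 and 8.27 to 8.35, so neither list overlapped between groups. For comparison, 0.330% of all genes were called lower, and 17.1% of all single genes did not overlap. B and plasma cell markers (6 measured) averaged 6.18 to 7.52 in controls and 7.16 to 7.57 in mutants. They thus overlapped, as did the fibroblast, endothelium and enteric neuron lists. Singly, 5 of the enteroendocrine markers lay above the control mean and 3 below it, with a median log2 difference of 0.07. Y-linked genes (3 measured) averaged 5.54 in control 1 and 5.62 in mutant 3 and at most 2.70 elsewhere. The difference between 3' and 5' probe sets, a sign of RNA integrity, was highest in mutant 1 for actin (0.73, against 0.39 to 0.66 elsewhere) and Gapdh (0.71, against 0.29 to 0.58). The part of the enterocyte, T cell, macrophage and enteroendocrine markers and of RNA integrity in the results was not tested.

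**Figure D1:**
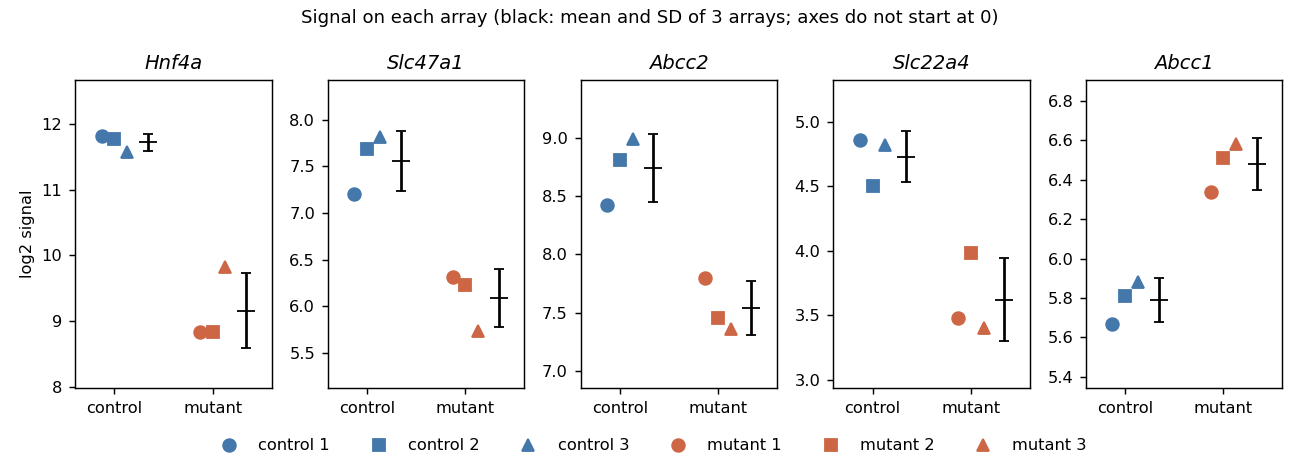
Log2 signal of Hnf4a and the 4 transporter genes that passed the test, 1 point per array, with the mean and SD of 3 arrays in black; each panel has its own axis, which does not start at 0. Mutants lie below all controls for Hnf4a, Slc47a1, Abcc2 and Slc22a4, and above all controls for Abcc1 (5.67 to 5.88 in controls, 6.34 to 6.58 in mutants).

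Among exporters of organic cations, Slc47a1 showed the largest fall of all members. It encodes MATE1, which exchanges protons for organic cations such as metformin and is known chiefly from kidney and liver. Its log2 signal was 7.20, 7.68 and 7.81 in controls 1 to 3 and 6.31, 6.23 and 5.74 in mutants 1 to 3. All mutant values lay below all control values, with control 1 and mutant 1 nearest to each other. The group means were 7.56 ± 0.32 (SD, n = 3) and 6.09 ± 0.31 (SD, n = 3), a 2.78-fold fall (log2 difference -1.47 ± 0.20 SE, 95% interval -1.94 to -1.01, limma adjusted p = 0.0267). Slc47a1 had 1 probe set, above the median probe set of every array.

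The call for Slc47a1 was lost when control 2, control 3 or mutant 2 was left out (adjusted p = 0.118, 0.129 and 0.0836), with the difference between -1.66 and -1.30 over all 6 omissions. With the ileum marker mean as a covariate, which was added after the data were seen, the difference was -0.80 (adjusted p = 1). That mean did not overlap between the groups (7.55 to 8.97 in controls, 9.25 to 9.89 in mutants). In this fit, and in that of every other gene, it therefore cannot be told apart from the deletion.

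Of the MRP pumps, 8 were measured, and they moved in both directions. Abcc2 fell, Abcc1 rose and the other 6 did not pass. Abcc2 encodes MRP2, the apical pump that returns glutathione, glucuronide and sulfate conjugates to the gut lumen. Arrays read 8.42, 8.81 and 8.99 in controls and 7.80, 7.45 and 7.36 in mutants. Every mutant read below every control, with mutant 1 the nearest to the controls. The means were 8.74 ± 0.29 (SD, n = 3) and 7.54 ± 0.23 (SD, n = 3), a 2.30-fold fall (log2 difference -1.20 ± 0.18 SE, 95% interval -1.60 to -0.80, limma adjusted p = 0.0319).

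The Abcc2 call was lost without control 2, control 3, mutant 2 or mutant 3 (adjusted p = 0.138, 0.156, 0.11 and 0.0678), while the difference stayed between -1.36 and -1.08. With the ileum marker mean as a covariate it was -0.61 (adjusted p = 1). Its only probe set is of a kind that can match more than 1 transcript.

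Abcc1 encodes MRP1, a basolateral pump for glutathione conjugates and leukotriene C4 that is found in most tissues. It was the only transporter gene that rose. Log2 signals were 5.67, 5.81 and 5.88 in controls and 6.34, 6.51 and 6.58 in mutants, with the groups well apart and little spread in either. The means were 5.79 ± 0.11 (SD, n = 3) and 6.48 ± 0.13 (SD, n = 3), a 1.61-fold rise (log2 difference 0.69 ± 0.11 SE, 95% interval 0.43 to 0.95, limma adjusted p = 0.049). A second Abcc1 probe set lay below the median probe set on every array and differed by 0.03 ± 0.13 SE.

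The Abcc1 call lay at the edge of the threshold. Of the 6 omissions of an array, only that of mutant 1 kept it, and the adjusted p reached 0.176. Averaging both probe sets gave a difference of 0.36 (adjusted p = 0.201). It was also lost with each array centred on its median (adjusted p = 0.0526), with only genes brighter than the median probe set (0.0502), with trend and robust fitting (0.0581) and with Y-linked expression as a covariate (0.0501), all as limma adjusted p. T cell markers averaged 7.90, 6.43 and 7.16 in controls 1 to 3 and 7.62, 8.50 and 8.01 in mutants 1 to 3. Their part in the result was not tested.

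Abcc10, which encodes the MRP7 pump, differed the same way as Abcc1 without passing. It read 5.62, 5.50 and 5.25 in controls and 6.17, 5.95 and 5.86 in mutants, and the groups did not overlap (difference 0.54 ± 0.13 SE, limma adjusted p = 0.161). Its other probe set lay below the array median on every array and differed by -0.11 ± 0.12 SE. Abcc3, the basolateral pump MRP3 that passes bile acids and glucuronides to the blood, read 6.74, 6.52 and 6.82 in controls and 6.76, 6.89 and 6.52 in mutants. The groups overlapped, and the 95% interval of its difference ran from -0.28 to 0.34, a range that leaves out the value of Abcc2.

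Abcc4, a pump for cyclic nucleotides and prostaglandins, differed by 0.14 ± 0.16 SE, with mutant 2 highest at 5.81 and all other arrays between 5.23 and 5.43. Abcc5, a pump for cyclic nucleotides and nucleotide analogs, had 10 probe sets. Its brightest differed by 0.17 ± 0.24 SE, with mutant 1 at 8.52 and the other arrays between 7.49 and 7.80. The remaining Abcc5 probe sets differed by -0.44 to 0.30, and none passed over all probe sets. Abcc6 and Abcc12 lay below the array median on every array.

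P-glycoprotein and BCRP, the other apical drug pumps, did not pass. Abcb1a encodes the P-glycoprotein of mouse intestine. The brightest probe set read 10.13, 9.52 and 10.53 in controls and 9.43, 8.85 and 9.49 in mutants. Every mutant read below every control, but mutant 3 and control 2 differed by little, and the spread between controls was wide (SD 0.51, n = 3). The difference was -0.80 ± 0.27 SE (95% interval -1.42 to -0.19, limma adjusted p = 0.279), and the other Abcb1a probe set gave -0.71 ± 0.30 SE.

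Abcb1b, the second P-glycoprotein gene, lay below the median probe set on every array, at 3.67 to 3.81 in controls and 3.82 to 3.84 in mutants. Abcb1a and Abcb1b are close paralogs. Abcg2, which encodes BCRP, a pump for sulfated steroids and urate, went the other way from Abcb1a. It read 10.22, 10.05 and 10.04 in controls and 10.21, 10.67 and 10.63 in mutants. Mutant 1 lay within the control range, and the difference was 0.40 ± 0.14 SE (95% interval 0.07 to 0.73, limma adjusted p = 0.306).

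**Figure D2:**
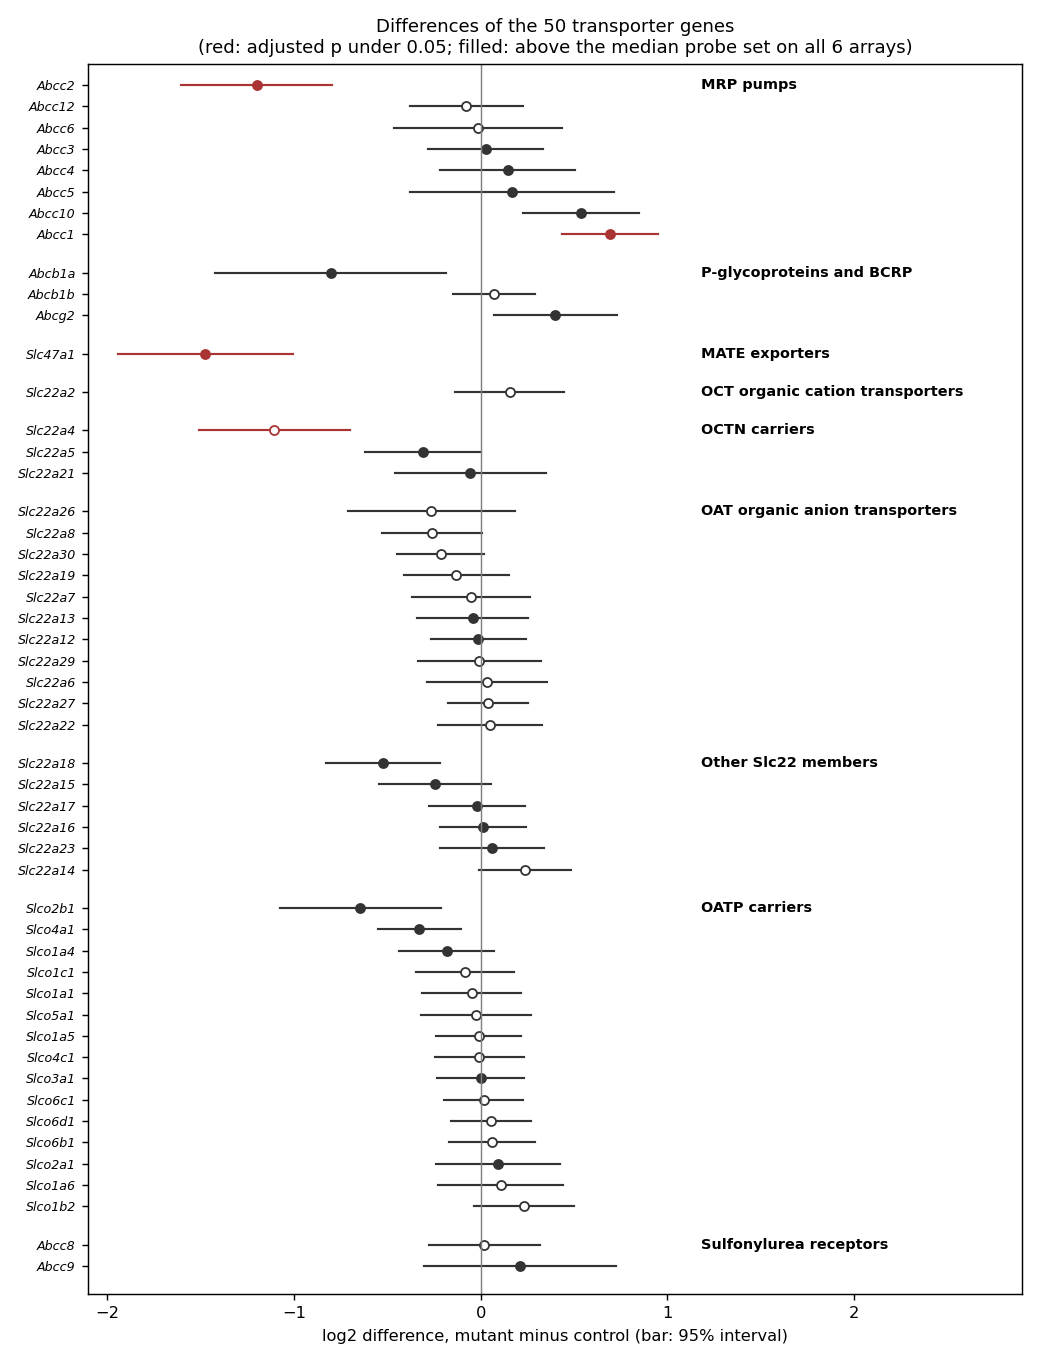
Log2 difference (mutant minus control, horizontal axis) of each of the 50 transporter genes with its 95% interval, grouped by family. Red marks the 4 genes with an adjusted p under 0.05, and open points mark genes that were not above the median probe set on all 6 arrays; most of the OAT and OATP genes are open and close to 0.

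The OCTN carriers take up carnitine and ergothioneine, and 1 of the 3 measured fell. Slc22a4 encodes OCTN1, the ergothioneine carrier. Its log2 signal was 4.86, 4.50 and 4.82 in controls and 3.48, 3.98 and 3.40 in mutants. The groups did not overlap, and mutants 1 and 3 read below the median probe set of their arrays, near background, which leaves the fold uncertain in size. The means were 4.73 ± 0.20 (SD, n = 3) and 3.62 ± 0.32 (SD, n = 3), a 2.15-fold fall (log2 difference -1.10 ± 0.18 SE, 95% interval -1.51 to -0.70, limma adjusted p = 0.0463).

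The Slc22a4 call held in 1 of the 6 omissions, that of mutant 2, and the adjusted p of the others reached 0.233, with the difference between -1.29 and -0.99. It was also lost under quantile normalization (0.0625), median centring (0.0574) and other rules for choosing probe sets (0.0513 and 0.0527), all as limma adjusted p. The ileum marker mean as a covariate left the difference at -1.10 (adjusted p = 1).

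Slc22a5 encodes OCTN2, the high-affinity carnitine carrier. It read 9.26, 9.10 and 9.01 in controls and 9.01, 8.85 and 8.58 in mutants. Control 3 and mutant 1 were nearly equal, and the difference of -0.31 ± 0.13 SE did not pass (limma adjusted p = 0.413). Its dimmer probe set differed by -0.53 ± 0.17 SE. Slc22a21, the remaining gene of this group, differed by -0.06 ± 0.18 SE with overlapping groups.

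Most organic cation and anion carriers of the OCT and OAT groups were dim. Slc22a2, the kidney organic cation carrier OCT2, exceeded the median probe set on 1 array and differed by 0.16 ± 0.13 SE. Of 11 organic anion (OAT) genes, 7 lay below the array median on every array and 2 above it on every array. Their differences ran from -0.26 to 0.05, and 0 passed. The smallest p among them belonged to Slc22a8, the kidney carrier OAT3, at 3.36, 3.08 and 3.14 in controls and 3.05, 2.93 and 2.83 in mutants (limma adjusted p = 0.432), all below the array medians.

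Among the 6 other Slc22 genes, Slc22a18 had the smallest p. It is an imprinted gene whose product resembles organic cation transporters. Log2 signals were 8.44, 8.31 and 8.43 in controls and 7.96, 8.04 and 7.61 in mutants, with the mutants apart from the controls and mutant 3 lowest. The difference was -0.52 ± 0.13 SE (95% interval -0.83 to -0.22, limma adjusted p = 0.167), and its second probe set differed by -0.55 ± 0.16 SE. Slc22a14 and, among the OAT genes, Slc22a30 differed by 0.24 ± 0.11 SE and -0.21 ± 0.10 SE, both below the median probe set on every array. Slc22a29 and Slc22a30 share a probe set, which was left out because it names both.

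OATP carriers take up bile acids, thyroid hormones, prostaglandins and many drugs without a direct use of ATP. Of 15 measured, 0 passed the limma test over all genes, 2 had an unadjusted p under 0.05 (12.1% of all genes did), and 10 lay below the median probe set on every array. Slco2b1 is the main OATP gene of enterocytes. It read 7.71, 7.45 and 7.41 in controls and 7.13, 7.05 and 6.45 in mutants, with no overlap and mutant 3 lowest. Its difference was -0.64 ± 0.19 SE (95% interval -1.08 to -0.21, limma adjusted p = 0.22). A second Slco2b1 probe set gave -0.47 ± 0.12 SE, whereas a dim one, not above the median probe set on all arrays, gave 0.30 ± 0.12 SE.

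Slco4a1, a carrier of thyroid hormone, read 5.63, 5.50 and 5.58 in controls and 5.30, 5.18 and 5.24 in mutants. The groups were tight and apart, but the difference was small at -0.33 ± 0.10 SE (limma adjusted p = 0.221). Slco2a1, the prostaglandin uptake carrier, read 8.92, 8.83 and 8.61 in controls and 9.02, 9.01 and 8.61 in mutants, so control 3 and mutant 3 read the same. The 95% interval of its difference ran from -0.24 to 0.43. For the widely expressed Slco3a1 the groups overlapped at 5.78 to 5.95 and 5.76 to 5.90, with an interval from -0.24 to 0.23. Slco1b2, a liver OATP gene, lay below the median probe set on every array.

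The sulfonylurea receptors Abcc8 and Abcc9 belong to the Abcc family but are subunits of ATP-sensitive potassium channels, not transporters. Abcc9, the form of smooth muscle and heart, read 6.65 to 7.41 in controls and 6.91 to 7.47 in mutants and differed by 0.21 ± 0.22 SE. The smooth muscle marker list (7 measured) averaged 9.48 to 9.89 in controls and 9.68 to 9.83 in mutants.

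**Figure D3:**
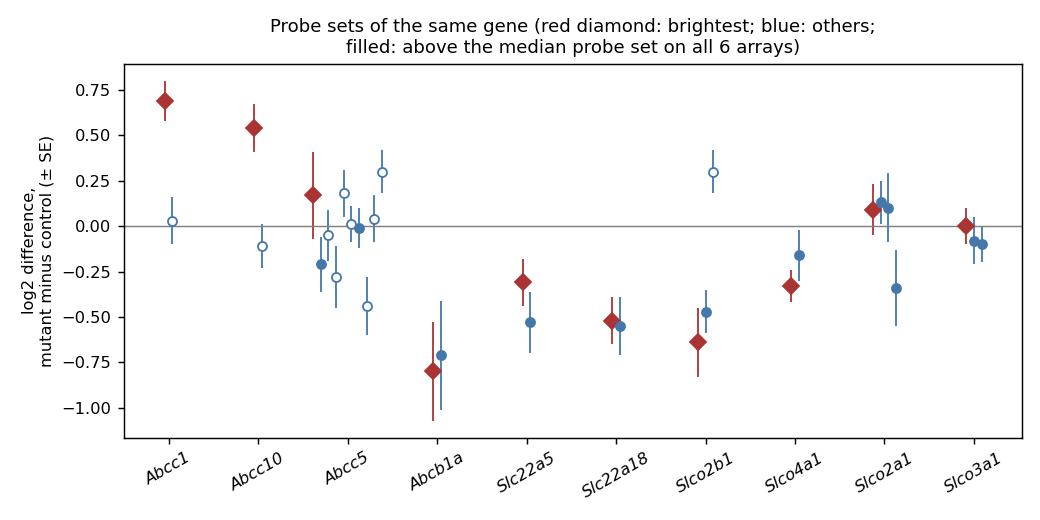
Log2 difference (mutant minus control, ± SE, from the fit over all probe sets) of every probe set of 10 transporter genes with several; red diamonds are the brightest probe set of each gene and filled points lay above the median probe set on all 6 arrays. Both Abcb1a, both Slc22a5 and both Slc22a18 probe sets lie below 0, while the dim second probe sets of Abcc1 and Abcc10 lie at 0.03 and -0.11.

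Over the 50 genes, 28 lay below the control mean (56.0%, against 53.3% of all genes), a share close to the background. The median difference was -0.009 on the log2 scale, against -0.013 over all genes. At an unadjusted p under 0.05 there were 10 members (12.1% of all genes), 7 lower (6.85% of all genes) and 3 higher (5.24%). The groups did not overlap in 14 members (17.1% of all genes), 10 lower (10.2%) and 4 higher (6.93%). Of the 50, 24 were above the median probe set on every array, 21 on none and 5 on some. The 21 dim genes differed by -0.26 to 0.24, and at that brightness a true difference may not be measurable. The adjusted p of the 2 members just inside the threshold, Slc22a4 and Abcc1, was 0.0463 and 0.049, and that of the next, Abcc10, 0.161.

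Calls across the list depended on the arrays used. Without control 2 or without control 3, 0 members passed, and 2 passed without control 1. Leaving out mutants 1, 2 and 3 gave 3, 1 and 1 members. Without control 3 and mutant 2, which carried acinar and fat transcripts, 0 passed, and the differences were -1.42 for Slc47a1, -1.03 for Abcc2, -1.24 for Slc22a4 and 0.72 for Abcc1. With all arrays but a floor at the 20th percentile of the values, all 4 calls were lost (limma adjusted p = 0.0745 to 0.0873), as they were with no moderation of the variance (0.278 to 0.356). In each of these limma fits the 4 genes had the same direction as with all arrays, at an unadjusted p under 0.05, but they had been picked on those same arrays. Between 7 and 13 of the 50 members (46 tested with the floor) had such a p, where 7.28% to 13.2% of all genes did in the same fits.

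**Figure D4:**
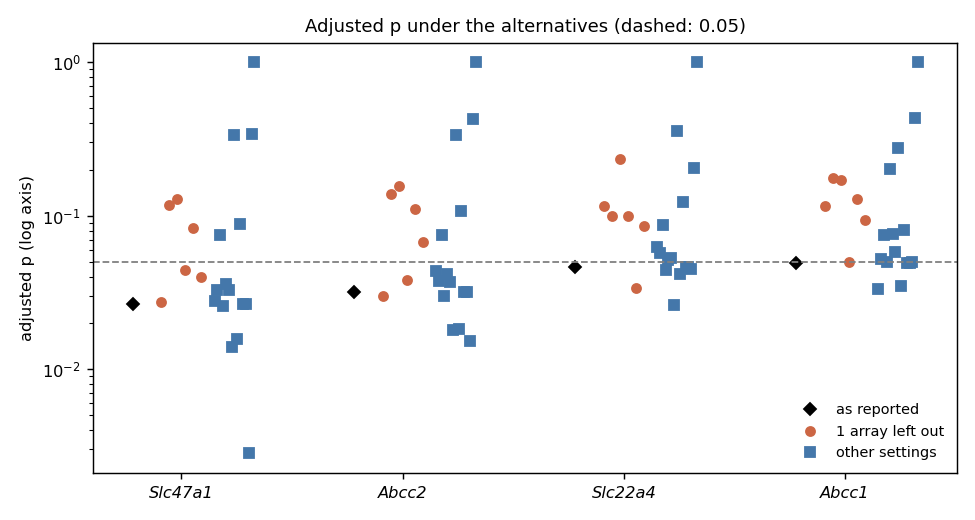
Adjusted p (log axis) of the 4 transporter genes that passed, as reported (black), with 1 array left out (orange) and under the other settings (blue); the dashed line marks 0.05. Slc47a1 stays under the line in 3 of 6 omissions, Abcc2 in 2, and Slc22a4 and Abcc1 in 1 each.

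Carriers outside the rule that also handle drugs, bile acids, nucleosides and vitamins were compared from a list of 20, of which 18 were measured. None of the 18 passed the limma test over all genes, and 6 had an unadjusted p under 0.05 (12.1% of all genes did). Slc15a1, the peptide and beta-lactam carrier PEPT1, differed by -0.46 ± 0.15 SE. The nucleoside carrier gene Slc29a1 differed by -0.44 ± 0.12 SE, and Slc16a1, the lactate and butyrate carrier, by -0.41 ± 0.14 SE. Slc51b, a subunit of the basolateral bile acid exporter, read 9.82, 9.45 and 9.39 in controls and 9.84, 10.40 and 10.37 in mutants, a difference of 0.65 ± 0.18 SE (limma adjusted p = 0.202). The difference was largest for Slc10a2, the ileal bile acid uptake carrier, which read 3.31, 2.93 and 3.26 in controls and 3.99, 4.40 and 6.98 in mutants (1.96 ± 0.67 SE, limma adjusted p = 0.289). Its controls lay below the median probe set of their arrays, and mutant 3 stood far above the other mutants. Slc10a2, which the naming rule does not cover, and Slc51b are also ileum markers.

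Receptors and other regulators known to control transporter genes were represented by 14 of 16 listed genes, Hnf4a included. Of these, Hnf4a, the deleted gene, and Nr1i3 fell, 0 rose and 12 did not pass. Over all genes, 0.330% fell and 0.198% rose by the same test. Nr1i3 encodes CAR, the drug-sensing receptor. Its log2 signal was 6.51, 6.55 and 7.26 in controls and 4.57, 5.31 and 4.63 in mutants, a 3.83-fold fall (log2 difference -1.94 ± 0.26 SE, limma adjusted p = 0.0241, lost without control 2, control 3, mutant 1 or mutant 3, up to 0.0851). The call was also lost with the floor (0.0719), with no moderation (0.334) and with the ileum covariate (difference -1.37, adjusted p = 1). Nr1i2, which encodes PXR, read 7.92, 8.06 and 8.38 in controls and 7.93, 8.36 and 7.76 in mutants, so its groups overlapped (difference -0.11 ± 0.18 SE). Nfe2l2, which encodes the transcription factor NRF2, differed by -0.41 ± 0.11 SE (limma adjusted p = 0.169), and Rxra, the shared partner of CAR and PXR, by -0.37 ± 0.15 SE.

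Scaffold proteins hold apical carriers such as OCTN1 and OCTN2 at the brush border, and 0 of 6 listed genes passed the limma test. Pdzk1 differed by -0.45 ± 0.17 SE and Slc9a3r1, which encodes NHERF1, by -0.19 ± 0.10 SE. Of the proteins that link membrane proteins to actin, Rdx, which holds MRP2 at the bile canaliculus, differed by 0.22 ± 0.11 SE and Msn by 0.45 ± 0.16 SE.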

How the data were processed

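The deposited table holds 1 log2 signal for each probe set on each array. Its log2 scale was inferred from the range of values, and the sources used here do not state the background correction, summarisation or normalization. The values were used as deposited. Of 45101 rows, 64 control probe sets were left out. The platform annotation gave 34945 of the other 45037 probe sets 1 symbol, 932 several and 9160 none listed. The brightest probe set by mean stood for each gene. All 50 transporter genes matched the RefSeq table by Entrez identifier, with the same symbol.

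Mutants and controls were compared with limma 3.58.1 in R 4.3.3 (lmFit and eBayes, group as the only term, two-sided, Benjamini-Hochberg over 18193 genes), tested on simulated data. Separate animals are the replicates, and the number of arrays limits the precision. Named were Hnf4a, members past the threshold, the 15 with the smallest p, the first of each family, a fixed list of intestinal transporters, and up to 4 genes of each other list plus Nr1i2 and Nr1i3. Abcc5, Abcc6, Abcc8, Abcc12, Slc22a21, Slc22a29, Slc10a2, Fabp6, Gip and Nts were named after their values were seen. Members and lists were chosen with earlier results of these data known. Alternatives covered normalization, floors and filters, probe set choice, variance models, thresholds, covariates and omitted arrays.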

Additional observations from a re-analysis of the deposited data

How the results depend on the processing

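Slc47a1, Abcc2, Slc22a4 and Abcc1 had the same direction in all alternatives run, at an unadjusted p under 0.05, but not always the adjusted call. These 4 genes had been picked for a small p on the same arrays, so their kept direction is no independent support. As reported, 4 transporter genes and 96 of all genes passed. In the limma fit over all 45037 probe sets, 1 of 91 member probe sets passed, where 87 of all probe sets did. It was that of Slc47a1 (adjusted p = 0.0455). The brightest probe sets of Abcc2 (0.0565), Slc22a4 (0.0779) and Abcc1 (0.0779) did not pass that fit. Transporter counts were 2 with each array centred on its median, 2 with probe sets averaged per gene and 2 with the probe set of largest SD. They were 0 with a floor at the 20th percentile (46 members tested), with no moderation of the variance and without control 3 and mutant 2 together. They were also 0 with the ileum marker mean as a covariate, chosen after the data were seen. In these limma fits, in that order, 11, 9, 7 and 4 members had an unadjusted p under 0.05. The shares of all genes were 12.6%, 9.56%, 7.28% and 3.37%. With 1 array left out, transporter counts ranged from 0 to 3. Counts over all genes were 44 with the floor, 2 with no moderation, 150 with array weights, 248 at an adjusted p under 0.10, 196 with the Y-linked covariate, 4 without control 3 and mutant 2, 2 with the ileum covariate, and 22 to 96 with 1 array left out. The floor left out genes at the floor on every array, and the ileum markers differed between the groups themselves. Otherwise the cause was not tested.

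Replicate numbers were not used to pair the animals, and the sample titles do not say whether they mark pairs. Same-numbered deviations correlated at 0.073, 0.068 and -0.018. Controls 1 and 2 correlated most with the mutant of their own number, and control 3 did not. These values cannot show whether the animals were paired. With the replicate block, 0 transporter genes and 62 of all genes passed limma, and 12 members had an unadjusted p under 0.05 (12.7% of all genes did). The Nr1i3 call was lost with this block (limma adjusted p = 0.0555).

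The median difference of the transporter genes was -0.009, or -0.049 with the probe set of largest SD, 0.019 without control 3 and mutant 2, and -0.024 to 0.006 with 1 array left out. Among the named genes, signs turned for 8, none of which passed in any alternative run; unnamed genes were not followed singly, but the number below the control mean moved from 28 to 25 under quantile normalization. Slco3a1 was 0.00 under quantile normalization, 0.01 under centring, 0.02 with array weights and 0.02 with the ileum covariate, Slco2a1 0.00 with the mean of probe sets, -0.34 with the largest SD and -0.06 without control 3 and mutant 2, and Nr1i2 0.31 with the ileum covariate. With the largest SD, Slco1b2 was -0.13 (0.23 as reported), Abcc9 -0.09 (0.21 as reported) and Abcb1b -0.06. With 1 array left out, Abcc3 ranged from -0.06 to 0.13, Abcc4 from -0.03 to 0.26, Slco3a1 from -0.03 to 0.05 and Nr1i2 from -0.28 to 0.02. The 21 transporter genes below the array medians limit what the list can show.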
